A study of Mus musculus with 2 samples.

Results

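Creb3l2 is the mouse gene for a membrane-bound bZIP transcription factor of the CREB3 family, also called BBF2H7. Its peaks were taken as every called Sox6 or Sox9 peak whose centre lies in a 150 kb window of chromosome 6, chr6:37265000-37415000 in the mouse build mm9. The window holds 56 peaks from the Sox6 list of 79107 and 20 from the Sox9 list of 23865, which is 76 of 102972 in all. Within it the gene runs on the minus strand over about 111 kb, from its start near 37392000 down to its end near 37281000. Both ends are rounded to 1000 bp, so distances from the gene start given here carry that uncertainty. The locus was chosen for a known gene with earlier results on peak density in view. The number of peaks and their overlap are therefore described without a test.

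The series holds 2 samples of primary rib chondrocytes from untreated wild-type ICR mice at postnatal day 1. One was a chromatin immunoprecipitation (ChIP-seq) with an antibody to Sox6 and the other was input DNA without antibody, for which no separate file was analysed here. The ribs were dissected to hold proliferative and prehypertrophic cartilage without mature hypertrophic cartilage. The Sox9 peaks come from 2 earlier samples of the same cell type, called again by the submitters in the way used for Sox6, and nothing is stated of the strain and age of those mice. With a single list for each factor there is no replicate error, and intervals cover counting error only. The lists hold positions without read counts or scores, and the depth is unknown. Any difference between the lists cannot be told apart from a difference between the antibodies, animals or libraries.

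Creb3l2 sits in the membrane of the endoplasmic reticulum and, when secretory load rises, is cut in the Golgi by site-1 and site-2 proteases. The freed part enters the nucleus and activates genes of vesicle transport, among them Sec23a, which encodes a coat protein of the vesicles that leave the endoplasmic reticulum. Cartilage cells export large amounts of type II collagen and aggrecan, and mice without Creb3l2 have a severe chondrodysplasia in which matrix proteins are held back inside the cell. Chondrocytes depend on SOX9, an HMG-box activator without which cartilage does not form. Its SOXD partner SOX6 has no activation domain of its own.

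The reference sequence in front of the gene is shown because the most upstream Sox9 peak of the locus was called close to the gene start. It overlapped a Sox6 peak at the edge, with centres 125.5 bp apart. The sequence is taken from RefSeq (GRCm38.p6, minus strand) and holds the 122 bases before the outermost annotated start of Creb3l2. Capitals mark a cyclic AMP response element half-site (TGACGT) and an inverted CCAAT box (ATTGG).

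Creb3l2 promoter: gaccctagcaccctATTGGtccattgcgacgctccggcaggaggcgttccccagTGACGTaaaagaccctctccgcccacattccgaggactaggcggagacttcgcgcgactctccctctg

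The half-site begins 68 bases before that start. TGACGT or its reverse ACGTCA occurs in 1.78% of the 32851 promoter stretches of the same length in the table, and CCAAT or ATTGG in 16.5%. These 122 bases hold neither ACAAAG nor CTTTGT, the letters of a SOX core, which 8.58% of the stretches hold, and neither ACAAT nor ATTGT, which 15.9% hold. The motifs were searched on both strands and do not overlap each other. The stretch is 62.3% G and C, beside a median of 50.8% over all stretches, and the shares given are not matched for this. The sequence and the peaks are on different builds, so whether the called peaks reach into this stretch was not determined.

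Most peaks of both factors lay within the gene span, and few lay upstream of its start. Of the 56 Sox6 peaks, 49 had their centre within the gene span, 3 upstream of the start and 4 beyond the end. Of the 20 Sox9 peaks, 19 lay within the gene span, 1 upstream and 0 beyond the end. The most upstream Sox6 peak, chr6:37403147-37403389, lay 11.3 kb before the gene start, and the next Sox6 peak on that side was 139 kb farther, at chr6:37542534-37542650. The next Sox9 peak on that side lay 453 kb away from the last one at the gene. Beyond the gene end the spacing was shorter for Sox6, with 26.6 kb to the next peak at chr6:37249901-37250046, and was 124 kb for Sox9. In the RefSeq table, read for gene order only, the lncRNA gene Gm33318 is the next gene upstream of Creb3l2 and Akr1d1 the next protein-coding one. On the other side Dgki follows, and the lncRNA gene Gm33275 lies inside Creb3l2. Peaks within the gene cannot be assigned to exons or introns here.

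At Creb3l2, 13 of the 20 Sox9 peaks had a Sox6 overlap of at least 1 bp. This was 65.0% (95% exact binomial interval 40.8 to 84.6), beside 76.7% over the whole Sox9 list. Seen from the other side, 13 of the 56 Sox6 peaks had a Sox9 overlap, or 23.2% (13.0 to 36.4), beside 23.1% over the whole Sox6 list. Both intervals include the value of the list, so a difference was not detectable with these numbers of peaks. The intervals are wide, treat neighbouring peaks as independent and are not a test. The window held 2.80 Sox6 peaks per Sox9 peak, and the whole lists 3.31.

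**Figure D1:**
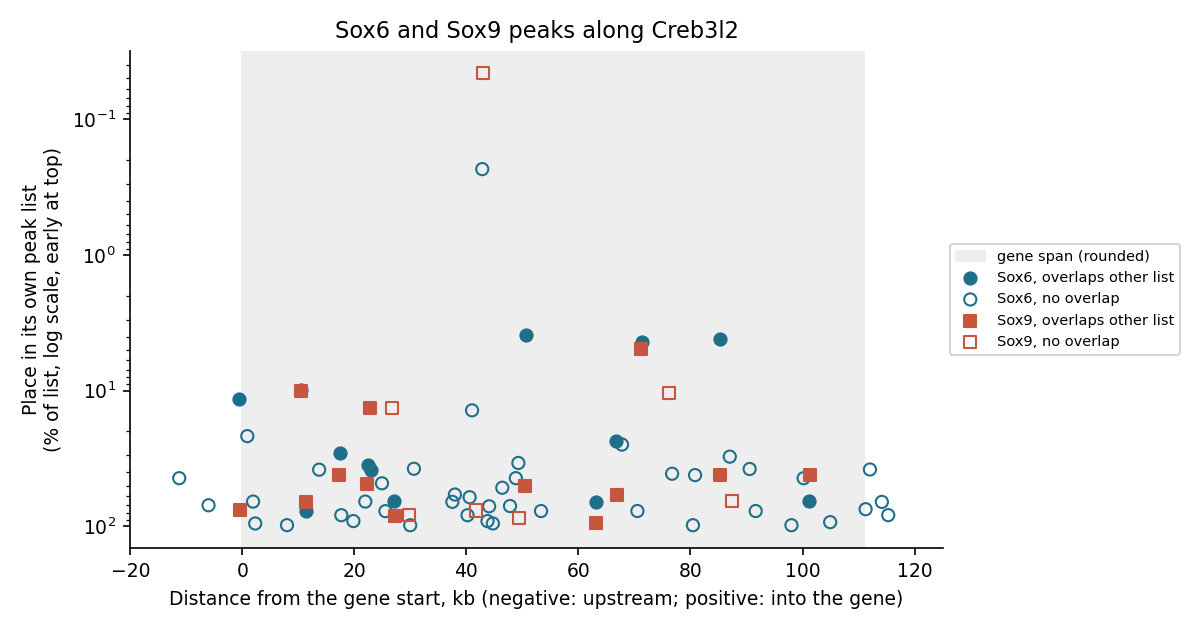
Each called peak by its distance from the Creb3l2 start (x axis, kb, positive into the gene) and its place in its own list (y axis, percent of the list on a log scale, early places at the top). Circles are Sox6 and squares Sox9, filled where the peak overlaps the other list. The earliest peak of each list, both open symbols, stand together at 43.0 and 42.8 kb into the gene.

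The earliest-listed peaks of both factors at this gene were called side by side, 43 kb into it. The order of the lists is not documented, although overlap with the other list falls along each of them, so a place is given here as a description and not as a strength. The Sox9 peak chr6:37348949-37349106 stood at place 11 of the 23865 Sox9 peaks, which is second among the 1361 on chromosome 6. The Sox6 peak chr6:37349110-37349242 stood at place 185 of the 79107 Sox6 peaks, which is 14th among the 4495 on chromosome 6. Only 3 bp separated their edges and 148.5 bp their centres, so under a rule of at least 1 shared bp neither counted as overlapping. The 10 Sox9 peaks listed before this one all overlapped a Sox6 peak, and of the first 100 Sox9 peaks 5 did not. Of the 184 Sox6 peaks listed before its neighbour, 34 had no Sox9 overlap. Of the 5563 Sox9 peaks without overlap in the whole list, 232 (4.17%) had a Sox6 edge within 10 bp, as this one has. That 10 bp limit was chosen after the values were seen.

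This pair lies in the 10 kb of the gene with the most Sox6 peaks, counted in steps from its start. Between 40 and 50 kb from the start 11 Sox6 peaks and 3 Sox9 peaks were called, and 0 of either overlapped the other list, beside the 23.1% and 76.7% of the whole lists. The stretch was picked after its values were seen, and its edges rest on the rounded gene start: a shared pair lies just outside it, at 50.5 kb. The Sox6 peaks there were narrow, 84 to 470 bp with a median of 101 bp, against a median of 155.5 bp over the window. The Sox9 peak chr6:37342568-37342630, 63 bp wide, ended 53 bp from a Sox6 peak. The Sox9 peak chr6:37350338-37350389, 52 bp wide, lay 541 bp from one, the largest such gap at the gene. All 3 Sox9 peaks of this stretch thus had a Sox6 peak beside them and none on them.

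**Figure D2:**
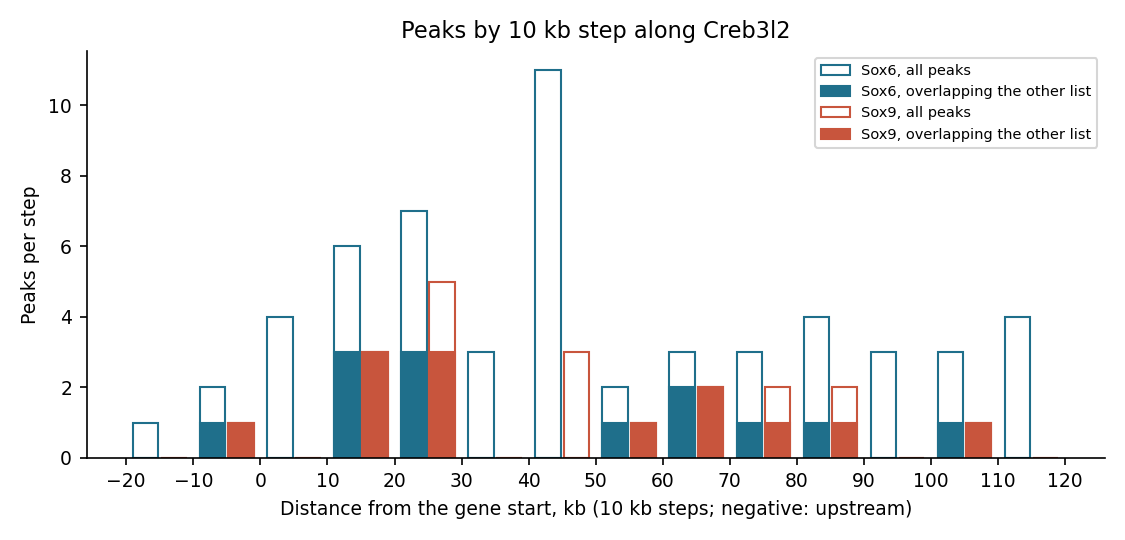
Number of peaks (y axis) in 10 kb steps from the Creb3l2 start (x axis, kb, negative upstream), with Sox6 and Sox9 side by side and the filled part of each bar overlapping the other list. The tallest bar, 11 Sox6 peaks at 40 to 50 kb, has no filled part, and the steps from 10 to 30 kb hold 6 of the 13 overlapping Sox9 peaks.

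The 13 shared sites ran from about 0.5 kb upstream of the gene start to 101 kb into the gene. At the start, the Sox9 peak chr6:37392386-37392535 and the Sox6 peak chr6:37392514-37392658 had centres 0.46 and 0.586 kb above the rounded gene start, 125.5 bp apart. With that rounding they may lie upstream of the gene or reach its first bases. The Sox6 peak was at 11.6% of its list and the Sox9 peak at 75.7% of its own. By the rounded start they were the nearest peaks of both lists, but for Sox6 this is not settled within the rounding. Another Sox6 peak without Sox9, chr6:37391049-37391180, lay 0.886 kb inside the gene, and the widest Sox6 peak of the locus, chr6:37389843-37390321 with 479 bp, lay 1.92 kb inside, also without Sox9.

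Between 10 and 30 kb into the gene 6 of the 8 Sox9 peaks overlapped Sox6, a share near that of the whole list, and the first 10 kb held 4 Sox6 peaks and 0 Sox9 peaks. At 10.5 kb the Sox9 peak chr6:37381388-37381526 lay on the Sox6 peak chr6:37381414-37381561 with centres 30.5 bp apart, and both were listed early, at 10.1% and 9.98% of their lists. At 11.4 kb the Sox9 peak chr6:37380548-37380750 covered the narrow Sox6 peak chr6:37380642-37380720, 79 bp wide. At 17.3 kb chr6:37374529-37374817 (Sox9) enclosed chr6:37374555-37374751 (Sox6), 20 bp between centres. These 3 pairs had closer centres than the 3 that followed deeper in the gene. At 22.3 kb the narrowest Sox9 peak, chr6:37369691-37369733 with 43 bp, fell inside the Sox6 peak chr6:37369460-37369741. At 22.8 kb chr6:37369098-37369272 (Sox9) met chr6:37368905-37369224 (Sox6) at 120.5 bp. At 27.2 kb chr6:37364731-37364876 (Sox9) lay within chr6:37364706-37365078 (Sox6), 88.5 bp apart. A pair of Sox9 peaks in this stretch had no overlap: chr6:37365278-37365394 was 199 bp from a Sox6 edge and was listed early, at 13.4%, and chr6:37362156-37362309 was 91 bp from one.

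Farther into the gene, the shared sites at 50.5, 71.1 and 85.2 kb held 3 of the 5 earliest Sox6 peaks of the locus. At 50.5 kb the Sox6 peak chr6:37341388-37341519, at 3.88% of its list, met the Sox9 peak chr6:37341399-37341560 with 26 bp between centres. At 71.1 kb the Sox9 peak chr6:37320726-37320985, at 4.97% of its list, met the Sox6 peak chr6:37320660-37320823, at 4.35%, with 114 bp between centres. At 85.2 kb chr6:37306687-37306893 (Sox9) and chr6:37306725-37306864 (Sox6) had the closest centres of all pairs, 4.5 bp apart. That Sox6 peak was at 4.15% of its list. Together with the Sox6 peak at 10.5 kb and the one beside the Sox9 peak at 43 kb these were the 5 earliest Sox6 peaks, of which 4 overlapped Sox9. All 5 lie in the first 10% of the Sox6 list, where 70.8% of all peaks overlap Sox9, so this count is near that of early Sox6 peaks in general.

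The remaining shared sites had peaks from later in the Sox6 list or wider offsets. At 63.1 kb chr6:37328866-37328931 (Sox9, 66 bp wide) lay in chr6:37328710-37328951 (Sox6), and the Sox9 peak was at 93.7% of its list. At 67.0 kb chr6:37324965-37325105 (Sox9) and chr6:37325092-37325386 (Sox6) overlapped at their edges, with the largest offset of the pairs, 204 bp. At 101 kb chr6:37290604-37290849 (Sox9), the Sox9 peak nearest to the gene end, met chr6:37290679-37290873 (Sox6). Between 76.1 and 87.5 kb a pair of Sox9 peaks lacked overlap: chr6:37315831-37315989 lay 355 bp from a Sox6 edge, and chr6:37304357-37304730, at 374 bp the widest Sox9 peak of the locus, 198 bp. The gene end itself had Sox6 alone, with chr6:37280612-37280867 nearest to it and 3 more beyond. Among the Sox6 peaks of the gene the shared ones were at a median of 28.8% of the list and the others at 65.9%, beside 19.4% and 58.6% over the whole list.

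Centres of the 13 pairs were 4.5 to 204 bp apart with a median of 68 bp, beside 40.5 bp over all 18297 overlapping pairs. Of the 13 pairs 6 were within 50 bp, 46.2% (19.2 to 74.9), beside 58.5% of all pairs. The interval includes the value of the whole list, so a difference was not detectable with this number of pairs.

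The rule for meeting the other factor changed the shares at this gene more than those of the lists, on far fewer peaks. For Sox9 the interval included the value of the list under every rule. For Sox6 it did so under all but the rule of edges up to 1000 bp apart. Under a rule that 50% of each peak must be covered by the other, 5 of 20 Sox9 peaks met a Sox6 peak, 25.0% (8.66 to 49.1), beside 44.6% of the list, and 5 of 56 Sox6 peaks met Sox9, 8.93% (2.96 to 19.6), beside 13.4%. With centres within 250 bp, 16 of 20 Sox9 peaks did, 80.0% (56.3 to 94.3), beside 81.1%, and 16 of 56 Sox6 peaks, 28.6% (17.3 to 42.2), beside 24.4%. With edges up to 1000 bp apart, 20 of 20 Sox9 peaks had a Sox6 peak on or beside them, which leaves a lower limit of 83.2%, beside 90.8% of the list. Under that rule 30 of 56 Sox6 peaks had a Sox9 peak on or beside them, 53.6% (39.7 to 67.0), beside 32.3% of the list. One Sox9 peak can count for several Sox6 peaks where peaks are crowded, as they are here. The 7 Sox9 peaks without overlap were 3 to 541 bp from a Sox6 edge with a median of 198 bp, beside 476 bp for the unshared Sox9 peaks of the whole list.

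**Figure D3:**
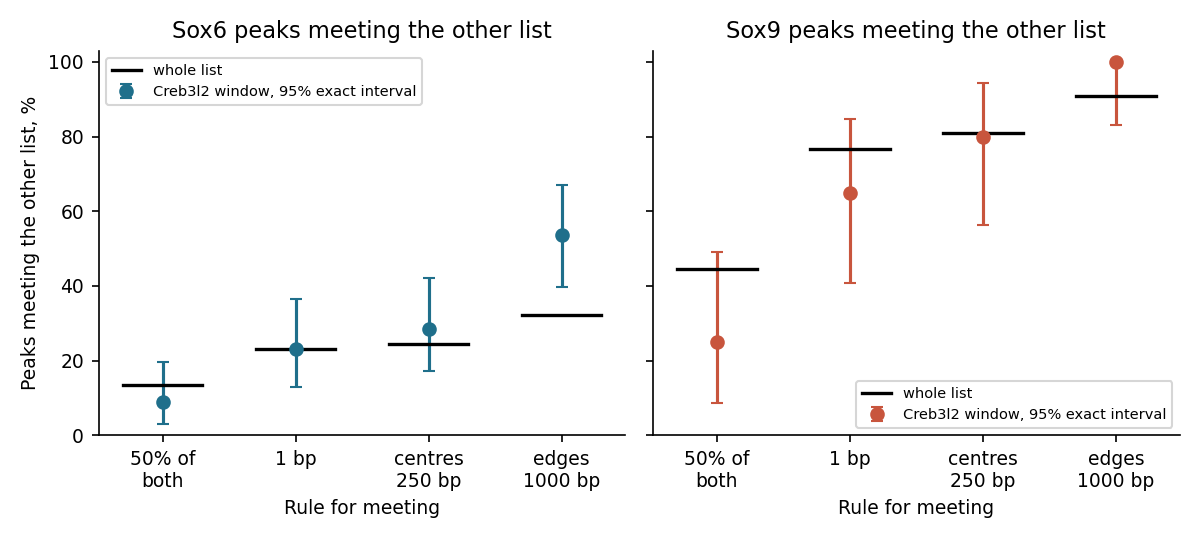
Share of peaks that meet the other list (y axis, percent) under 4 rules (x axis, from strict to loose), for Sox6 on the left and Sox9 on the right. Points with bars are the Creb3l2 window with its 95% exact interval and black lines the whole list. For Sox6 the interval lies above the line only with edges up to 1000 bp apart (39.7 to 67.0 beside 32.3).

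Few stretches of the genome of this length held as many peaks. Windows of 150 kb were laid over each chromosome so that the Creb3l2 window was one of them, 17128 in all. The window was set around the gene with its density known, which favours it over the others. By number of Sox6 peaks 9 windows held more than its 56, with a median of 2 and a maximum of 77. By number of Sox9 peaks 5 held more than its 20, with a median of 0 and a maximum of 31. Only 1 other window held at least as many of both, chr7:124565001-124715000 with 76 Sox6 and 23 Sox9 peaks. The neighbouring window beyond the gene end held 13 Sox6 and 2 Sox9 peaks, and the one upstream held 1 and 0.

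Among windows crowded with Sox6, the Creb3l2 window was among those with the most Sox9. Of the 26 other windows with 40 or more Sox6 peaks, a limit chosen after the data were seen, 2 held more than 20 Sox9 peaks, and their median was 10. Of their Sox6 peaks a median of 14.4% were shared (range 5.19 to 36.4), beside 23.2% here, and 4 of the 26 had a higher share. The 3 windows most like it in both counts were chr3:27515001-27665000 with 53 Sox6 and 18 Sox9 peaks, its neighbour chr3:27365001-27515000 with 60 and 12, and chr4:62765001-62915000 with 47 and 17. Their Sox6 peaks were shared in 20.8%, 16.7% and 25.5% of cases, in that order.

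**Figure D4:**
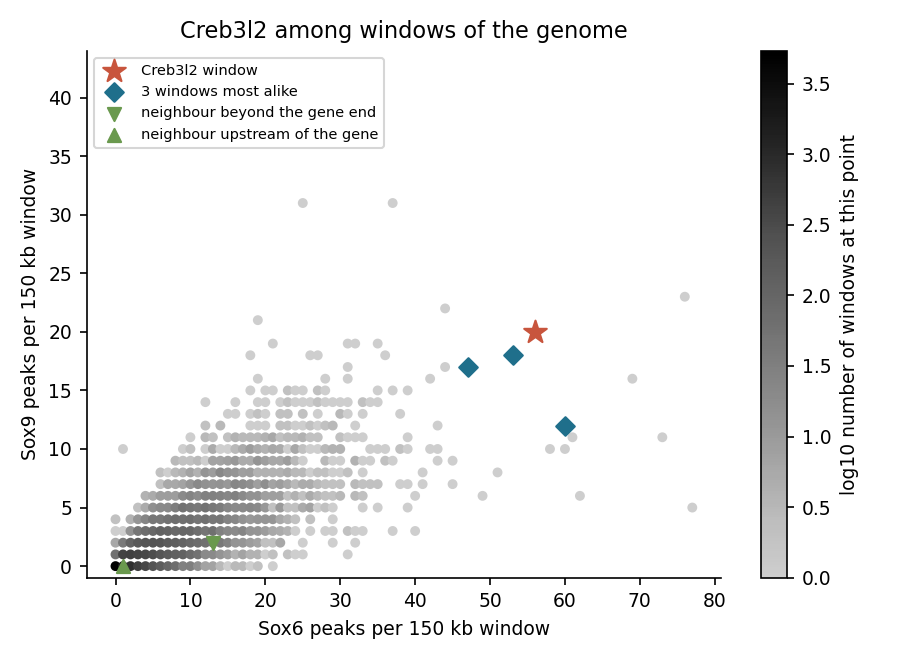
Sox6 peaks (x axis) and Sox9 peaks (y axis) per 150 kb window of the genome, where grey shows how many windows share a point (log10 scale). The star is the Creb3l2 window with 56 and 20 peaks, diamonds are the 3 windows most alike, and triangles are its neighbours with 13 and 2 peaks beyond the gene end and 1 and 0 upstream.

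Sox6 peaks followed each other closely along the gene and Sox9 peaks were fewer and farther apart. The Sox6 list is also the longer one, with 3.31 Sox6 peaks per Sox9 peak beside 2.80 in the window. No spacing over the whole lists is set beside the values here. Neighbouring Sox6 centres were a median of 1678 bp apart, and 17 of these distances were under 1000 bp. Neighbouring Sox9 centres were a median of 4179.5 bp apart, and 3 distances were under 1000 bp. When peaks with centres within 5000 bp were joined, Sox6 formed 9 runs and Sox9 formed 8. The largest Sox6 runs held 15 peaks each, chr6:37338597-37354550 with 1 shared peak and chr6:37361339-37384108 with 6. The longest distance between neighbouring Sox6 centres, 9850.5 bp, lay 53.3 to 63.2 kb into the gene, a stretch with no Sox9 peak apart from the one on its far border. For Sox9 the longest was 13817 bp, 87.5 to 101 kb into the gene, where Sox6 peaks went on. Peak widths summed to 10199 bp for Sox6, 6.80% of the window, and to 3304 bp for Sox9, 2.20%.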

How the data were processed

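The submitters' processing notes name Bowtie and mm9 and give no version; the peak caller and a build for the Sox9 list, taken here as mm9, are not stated in the sources used here. Both lists are labelled FDR1 by name, and what the label stands for is not explained. The authors deposited 3 columns for each peak: chromosome, start and end. Starts were read as counted from 0 and are printed counted from 1. Overlap, distances, runs and windows were computed with Python 3.11.15, pandas 2.3.3 and numpy 2.4.6, and exact Clopper-Pearson intervals (95%) with scipy 1.17.1; overlap was first tested on simulated lists. Members, rules and lists were chosen with earlier results of these data known. Named peaks were every Sox9 peak, every Sox6 peak overlapping one, the 5 earliest and the widest Sox6 peak, those nearest to the gene start and end, the 2 neighbouring windows and the 3 most alike. The gene table is on GRCm38.p6, so exons and peaks at other secretory pathway genes were not analysed here. Peak sequences and proteins were not analysed either, because no mm9 genome and no protein sequences were at hand. Alternatives covered the overlap rule, list length, gene span, merging, run distance and the phase of the windows that the Creb3l2 window was ranked against.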

Additional observations from a re-analysis of the deposited data

How the results depend on the processing

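No paired analysis was possible because there is 1 list per factor. The share of Sox9 peaks with a Sox6 overlap, 65.0%, became 25.0% with 50% of both peaks required, 100% with gaps up to 1000 bp and 35.0% with the Sox6 list at the length of the Sox9 list. The share of Sox6 peaks, 23.2%, became 8.93%, 53.6% and 63.6% under the same settings. The shorter list leaves 11 Sox6 peaks at the gene and was cut by list order, which is not documented. No whole-list share is set beside the shares from the shorter list, so they cannot be read as particular to this gene. With the first 50% of each list 25 Sox6 and 10 Sox9 peaks remained, by construction of shorter lists. The median offset of pairs, 68 bp, became 26 bp with 50% of both peaks required. The 9 Sox6 and 8 Sox9 runs became 25 and 15 with neighbours within 2000 bp, and 1 and 5 within 10000 bp. The other settings stayed within the interval of each share or within 1.5 times each count. A gap of up to 10 bp, added after the data were seen, gave 70.0% and 25.0%, also without a whole-list share beside them. The Creb3l2 window, kept around the gene, was also ranked against windows shifted by 75 kb. It then stood 12th in place of 10th by Sox6 peaks and 7th in place of 6th by Sox9 peaks. The Creb3l2 window itself was not shifted, so how its counts depend on its placement was not tested. Without scores or depth, no peak can be graded.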
